A study of Mus musculus with 10 samples.

Results

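TRBV1 encodes the V-beta 2 segment of the mouse T cell receptor beta chain, and its chains were followed through 9 libraries of rearranged beta-chain transcripts from Tcrd-/- and wild-type mice. Every clonotype listed with the V segment TRBV1 was taken, a clonotype being a distinct combination of V segment, J segment and nucleotide CDR3 (complementarity-determining region 3, the junction of the chain). This gave 2338 TRBV1 clonotypes among 29481, or 7.93%. The 8 skin libraries held 204 of them, with 36399 reads, and the lymph node library held the other 2134, with 4521 reads. Mice of the strain B6.129P2-Tcrdtm1Mom/J (Tcrd-/-) lack γδ T cells, and αβ T cells occupy their skin. Their epidermal cells (CD45+CD3hiTCRβhi, 3 libraries, A to C) were set against unselected dermal cells (CD45+CD3+TCRβ+, 2 libraries, A and B). Dermal cells of the same mutant were also sorted as CD103hi and as CD103+ (1 library each), CD103 being an integrin chain that binds E-cadherin on epithelial cells. Cells from peripheral lymph node of the mutant (1 library) and dermal αβ T cells of C57BL/6-N/Crl mice (WT, 1 library) completed the set. Each library came from cells pooled from 5 to 18 animals, so no value per animal exists, and the ages of the mice were not used here. The tables hold receptor sequences alone, so the labelled tissue could not be checked against marker genes.

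A beta chain is assembled in the thymus by joining 1 V, 1 D and 1 J segment. Before joining, nucleases trim the segment ends, and the enzyme TdT adds nucleotides that no segment encodes. The CDR3 runs from the conserved cysteine near the end of V to the conserved phenylalanine of J, and its middle faces the bound antigen. In mice, TRBV1 is one of the V segments that invariant natural killer T cells use, together with TRBV13-2 and TRBV29, but conventional T cells use all of them. Cysteines in the centre of the CDR3 have been associated with strongly self-reactive thymocytes and with intraepithelial lymphocyte precursors. In TRBV1 the germline itself supplies a cysteine close to the start of the CDR3, so a cysteine count over beta chains depends on whether position 3 is included.

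The germline part of the TRBV1 CDR3 is 17 bases long and lies at chr6:40891869-40891885 on the plus strand of GRCm38, at the end of exon 2 of Trbv1 (exon 2 spans 40891591 to 40891885, the gene 40891229 to 40891885). It is shown beside the same stretch of 2 TRBV13 segments, with the codon of position 3 in capitals, counting codons from 1 at the first cysteine.
TRBV1: tgcaccTGCagtgcaga
TRBV13-3: tgtgccAGCagtgatg
TRBV13-2: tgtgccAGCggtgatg
Among the 24 TRBV segments with a reference sequence, TRBV1 alone had a cysteine codon at that place, and 0 of the other 23 did. A TRBV1 chain that keeps this stretch whole therefore opens with cysteine, threonine, cysteine, serine and alanine.

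The largest TRBV1 clonotype of each library shows how little of that stretch is usually lost. The capitals again mark codon 3, and the sequences run 5′ to 3′ through the whole CDR3.
epidermal A: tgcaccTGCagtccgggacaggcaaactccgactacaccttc
epidermal B: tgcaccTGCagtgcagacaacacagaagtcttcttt
epidermal C: tgcaccTGCagtgcggttgaacagtacttc
dermal A: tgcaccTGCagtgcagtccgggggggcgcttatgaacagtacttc
dermal B: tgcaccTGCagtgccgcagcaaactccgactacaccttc
CD103hi dermal: tgcaccTGCagtgaagacacccagtacttt
CD103+ dermal: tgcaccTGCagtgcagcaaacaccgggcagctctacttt
lymph node: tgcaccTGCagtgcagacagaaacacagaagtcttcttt
WT dermal: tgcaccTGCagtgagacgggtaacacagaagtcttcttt
All 9 retained the cysteine codon. Their V match to the germline ended after 12 bases in the epidermal A clonotype, after 13 in the CD103hi and WT clonotypes, and at the full 17 in the epidermal B and lymph node clonotypes.

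TRBV1 was a minor segment in 2 of the 3 epidermal libraries and one of the leading segments elsewhere. Its share of reads was 1.25%, 7.14% and 0.00911% in epidermal libraries A, B and C, and 6.29% and 13.7% in dermal libraries A and B. It was 16.2% in the CD103hi dermal sort and 8.74% in the CD103+ dermal sort, 8.61% in lymph node and 7.52% in WT dermis. Epidermal libraries A and C were the lowest of the 9, while epidermal B lay above dermal A, so the epidermal and dermal groups overlapped. By reads TRBV1 ranked 2 of 16 listed TRBV segments in dermal B and 3 of 24 in the CD103hi sort, but 17 of 23 in epidermal A. Among neighbours in the order of read shares, only the CD103+ sort (95% Wilson interval 8.47 to 9.01%) and lymph node (8.37 to 8.85%) had overlapping intervals. These intervals cover counting error of reads only, and reads of a PCR product without molecular identifiers are not independent molecules. In bulk pools, fewer TRBV1 cells and less receptor RNA per cell cannot be told apart.

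The share of distinct clonotypes followed a similar order with wider intervals. It was 2.83%, 6.21% and 2.78% in epidermal A, B and C, and 5.53% and 13% in dermal A and B. It was 10.3% in the CD103hi sort, 8.74% in the CD103+ sort, 7.99% in lymph node and 7.55% in WT dermis. Each library's 95% interval overlapped that of its neighbours in the order, the widest being 7.21 to 22.3% for dermal B, which had 77 clonotypes in all.

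**Figure D1:**
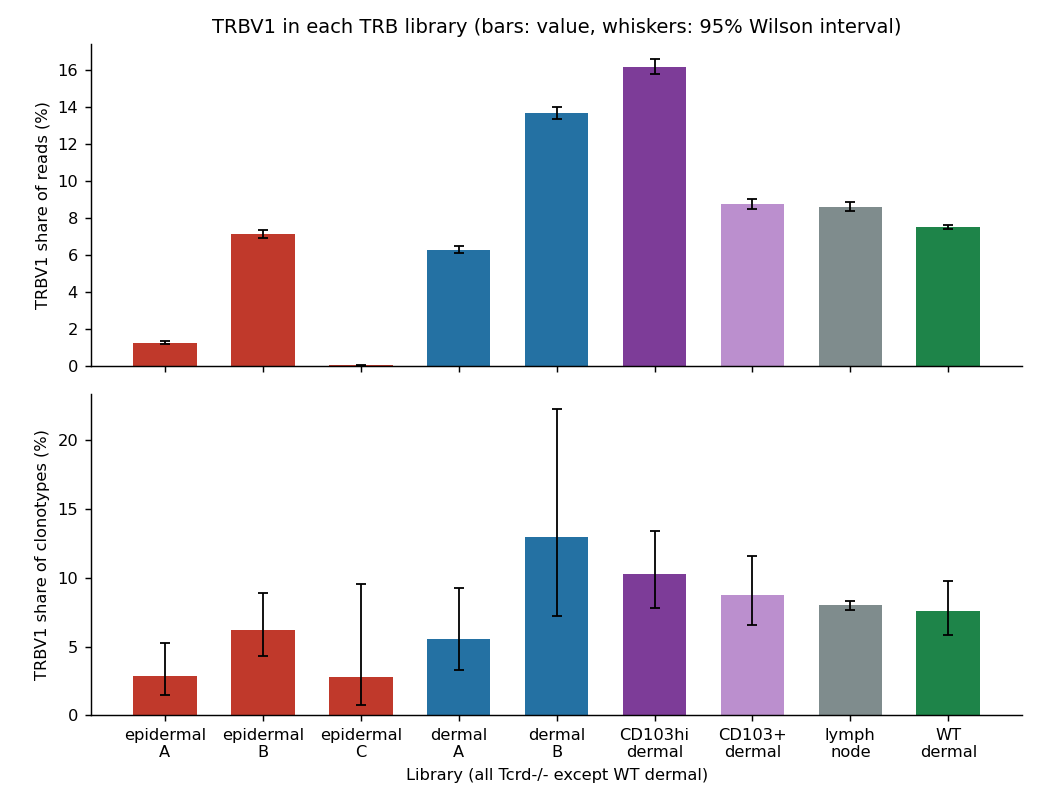
TRBV1 share of reads (upper panel, %) and of distinct clonotypes (lower panel, %) in each of the 9 TRB libraries, with 95% Wilson intervals for counting error. Epidermal A and C are lowest by reads, at 1.25% and 0.00911%, and the CD103hi dermal sort is highest at 16.2%. The clonotype intervals of neighbours in the order overlap, but that of epidermal A lies below those of dermal B, both CD103 sorts, lymph node and WT dermis.

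Neither share differed past the threshold between the epidermal and dermal groups. The read share averaged 2.80% ± 3.81 in epidermal libraries (SD, n = 3) and 9.999% ± 5.24 in dermal libraries (SD, n = 2), a log2 ratio of -1.84 with a standard error of 2.02 (adjusted p = 0.702, edgeR quasi-likelihood test). Of 23 TRBV segments tested by reads, 2 passed an adjusted p of 0.05, which is 8.70%, and TRBV1 was not among them: TRBV15 was higher and TRBV13-3 lower in epidermis. The clonotype share averaged 3.94% ± 1.96 in epidermal libraries (n = 3) and 9.26% ± 5.27 in dermal libraries (n = 2), a log2 ratio of -1.01 with a standard error of 0.75 (adjusted p = 0.715, edgeR). By clonotypes 0 of 21 segments passed, or 0%, with 0 at an unadjusted p under 0.05 and 0 with DESeq2. The library names fall into 3 sets, and within each set the epidermal library had less TRBV1 than the dermal ones. By reads, 1.25% in epidermal A stood against 6.29% in dermal A, and 0.00911% in epidermal C against 13.7% in dermal B. In the set without an unselected dermal library, 7.14% in epidermal B stood against 16.2% in the CD103hi and 8.74% in the CD103+ dermal sort. With the set as a block the log2 ratio was -6.34 by reads (adjusted p = 0.982, edgeR) and -1.43 by clonotypes (adjusted p = 0.943, edgeR).

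Small clonotypes that closely resemble a large one were frequent, and they bear on every count that follows. A clonotype was called a close variant when it lay within 3 mismatches of another with at least 10 times its reads in the same library, with the same V, J and length. By this definition 73 of the 204 skin TRBV1 clonotypes were close variants, 13 of them at 1 mismatch, 58 at 2 and 2 at 3. They made up 15 of 27 TRBV1 clonotypes in epidermal B, 21 of 47 in the CD103hi sort, 17 of 43 in the CD103+ sort and 11 of 53 in WT dermis, but only 20 of 2134 in lymph node. They carried between 0% and 2.75% of the TRBV1 reads of a skin library. Other TRBV segments had them too, at 8.57% to 44.4% of clonotypes in the skin libraries and 0.183% in lymph node. Whether they are PCR or sequencing errors was not tested. In lymph node no TRBV1 clonotype had more than 15 reads, so the definition could mark few variants there. With close variants and clonotypes at trace level left out, the TRBV1 share of clonotypes was 2.35%, 4.74% and 2.17% in epidermal A, B and C, and 5.26% and 13% in dermal A and B. A trace clonotype had under 1% of the share that the identical clonotype reached in another library of the set.

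The germline cysteine at position 3 was present in nearly every TRBV1 chain. It was kept in 186 of 204 skin clonotypes (91.2%, 95% Wilson interval 86.5 to 94.3%), which carried 99.8% of skin TRBV1 reads. In lymph node it was kept in 2105 of 2134 clonotypes (98.6%, interval 98.1 to 99.1%). The skin interval pools clonotypes of libraries that differ in genotype and sort as if independent, although 73 of them were close variants. The 2 intervals are therefore no test of skin against lymph node. By library the cysteine was kept in 7 of 9, 25 of 27 and 2 of 2 clonotypes in epidermal A, B and C, and in 11 of 13 and 10 of 10 in dermal A and B. It was kept in 43 of 47 in the CD103hi sort, 42 of 43 in the CD103+ sort and 46 of 53 in WT dermis. By clonotypes the epidermal and dermal ranges overlapped, and by reads every library was at 99.1% or more.

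All 18 skin clonotypes without the cysteine had a changed base in codon 3 while the 2 bases after it were still germline, so the segment had not been trimmed back to that point. Counting CDR3 bases from 1, the change from the germline was T7C in 11 of them and G8A in 4. T7A, T7G and the double change T7C,G8C occurred in 1 each. These 18 clonotypes held 57 reads in all, 13 of them had a single read, and all 18 were close variants of a larger clonotype. The one with most reads, chosen after its value was seen, had 36 reads in the CD103hi sort, beside 366 reads of the clonotype it resembles. The pair is shown with codon 3 in capitals.
changed codon, 36 reads: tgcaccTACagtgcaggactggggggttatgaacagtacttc
germline codon, 366 reads: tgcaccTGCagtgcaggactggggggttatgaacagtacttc
Among the 123 skin clonotypes that were neither close variants nor trace, 123 kept the cysteine (100%, interval 97.0 to 100%). This share rests on the definition of a close variant, which was chosen after the data had been seen.

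Clonotypes without the cysteine were counted as trimmed where the 2 bases after codon 3 were not both germline. There were 0 such clonotypes among 204 in skin, where a count of 0 allows up to 1.47% by the limit of 3 counts. In lymph node there were 5 among 2134, with 16 reads between them. The other 24 lymph node clonotypes without the cysteine had a changed base in codon 3, and 23 of these had a single read. The 5 junctions counted as trimmed are shown, with codon 3 in capitals. The deposited V end lay before the end of codon 3 in those with 7 and 4 reads, after 5 and 8 bases. In the rest it lay after 10 bases, past codon 3. These start like the germline with 1 base of codon 3 left out, so they do not show a segment cut back through the codon.
TRBJ1-2, 7 reads: tgcactGGGcactccgactacaccttc
TRBJ1-3, 4 reads: tgcaccTGGgagaatacgctctatttt
TRBJ1-3, 3 reads: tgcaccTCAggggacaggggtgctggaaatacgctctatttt
TRBJ1-3, 1 read: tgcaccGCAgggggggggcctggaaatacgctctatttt
TRBJ2-7, 1 read: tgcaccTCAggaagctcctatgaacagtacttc

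**Figure D2:**
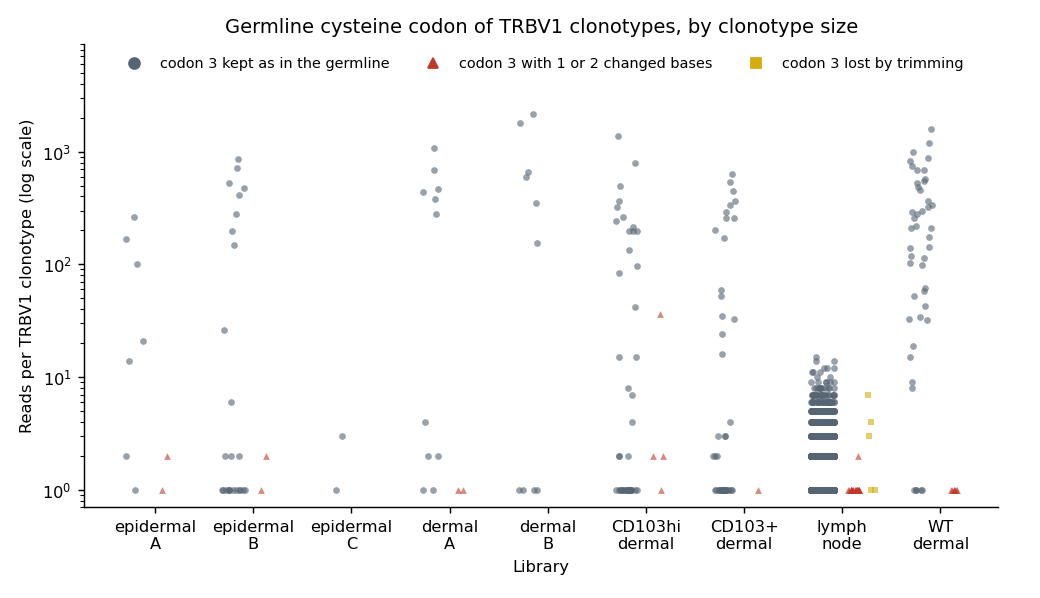
Reads per TRBV1 clonotype (log scale) in each library, with points spread sideways for legibility and marked by the state of codon 3. Clonotypes with a changed codon 3 (triangles) have 1 or 2 reads apart from the one with 36 reads in the CD103hi sort. The 5 clonotypes counted as trimmed (squares, labelled as lost by trimming) are all in lymph node, and in some of them the deposited V end lies past the codon.

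The rest of the V stretch was kept to a varying extent. With close variants and trace clonotypes left out, 121 of 123 skin clonotypes matched the germline without a break through at least 9 bases, the end of codon 3, and 37 of 123 (30.1%) through all 17. In lymph node 96.2% of 2112 clonotypes reached 9 bases and 28.2% reached all 17. All 17 bases were kept by 3 of 6 clonotypes in epidermal A, 5 of 11 in epidermal B and 0 of 1 in epidermal C, and by 4 of 9 and 3 of 7 in dermal A and B. They were kept by 5 of 25 in the CD103hi sort, 4 of 22 in the CD103+ sort and 13 of 42 in WT dermis. The CD103 sorts, lymph node and WT dermis therefore had lower shares than dermal A and B, with no test of that difference. The germline residues through alanine opened 86 of the 123 skin chains (69.9%) and 71.7% of the 2112 lymph node chains.

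**Figure D3:**
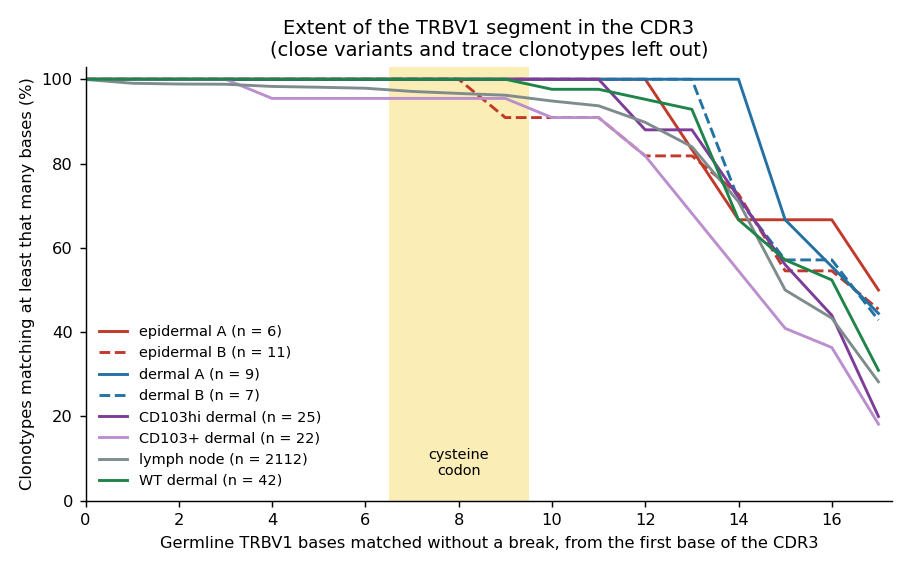
Share of TRBV1 clonotypes (%) whose CDR3 matches the germline V segment without a break for at least the given number of bases, by library, with close variants and trace clonotypes left out and epidermal C, which had 1 such clonotype, not drawn. The lines stay above 90% across the cysteine codon (shaded) and fall after it, to between 18.2% and 50% at the full 17 bases.

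Cysteines further in were rare on TRBV1 chains. A cysteine at position 4 or later occurred in 2 of 204 skin TRBV1 clonotypes (0.980%, interval 0.269 to 3.50%) and in 86 of 2584 skin clonotypes of other TRBV segments (3.33%, interval 2.70 to 4.09%). These intervals pool the skin libraries and treat close variants as independent clonotypes, so they do not test the difference. Both TRBV1 cases were close variants, as were 46 of the 86 others. They had 2 reads in the CD103+ sort at position 12, the next to last residue, and 1 read in the CD103hi sort at position 4. In lymph node a cysteine at position 4 or later occurred in 7 of 2134 TRBV1 clonotypes (0.328%) and in 119 of 24559 others (0.485%). Most of the lymph node TRBV1 cases had it in the last or next to last residue, and the rest at positions 4 and 9. The measure therefore takes in the J end and is no count of cysteines in the centre of the CDR3. The share was lower on TRBV1 than on other TRBV chains in 7 of 7 libraries with at least 10 TRBV1 clonotypes, with a mean difference of -2.92 percentage points (0.683% on TRBV1 and 3.60% on others). In every skin library among them the TRBV1 count was 0 or 1, and the limit of 3 counts exceeded the share on other chains. That limit ran from 5.66% in WT dermis (others 0.924%) to 30% in dermal B (others 7.46%). The direction in a single skin library therefore says little. A TRBV1 count of 0 lies below any share above 0, so small numbers of clonotypes can give the same direction in several libraries. The sign-flip test takes differences to be symmetric about 0, which such counts need not be, so its p cannot settle the difference. The exact two-sided sign-flip permutation test over libraries gave p = 0.0156, the smallest it can give, and an adjusted p of 0.0469 over the 6 within-library measures. A single measure at that p would not have passed, and the share without inserted nucleotides had the same p. Without close variants 5 libraries remained and the difference was -2.34 points (exact p = 0.125), and with at least 2 reads per clonotype it was -1.08 points (exact p = 0.312), both short of the threshold. Chains of other TRBV segments had a cysteine at position 3 in 14 of 2584 skin clonotypes (0.542%) and 34 of 24559 lymph node clonotypes (0.138%).

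TRBV1 chains were joined to all 12 listed TRBJ segments, in proportions that varied between libraries. In lymph node TRBJ2-7 led with 366 of 2134 clonotypes (17.2%), before TRBJ1-1 with 294 (13.8%), and TRBJ1-6 was lowest with 1. In epidermal A, TRBJ1-3 led with 4 of 9, and in epidermal B, TRBJ1-1 and TRBJ2-1 led with 8 of 27 each. The 2 clonotypes of epidermal C used TRBJ2-4 and TRBJ2-7. TRBJ2-7 led with 4 of 13 in dermal A and TRBJ2-1 with 3 of 10 in dermal B. TRBJ2-7 also led in the CD103hi sort with 11 of 47 and in WT dermis with 9 of 53, and TRBJ1-1 led in the CD103+ sort with 10 of 43. No segment led in all libraries of the epidermal or of the dermal group. With close variants and trace clonotypes left out, the lead changed in several libraries. In epidermal B, TRBJ1-1 and TRBJ2-7 then led with 3 of 11 each and TRBJ2-1 had 1, and in dermal B, TRBJ2-5 led with 2 of 7 and TRBJ2-1 had 1. In the CD103+ sort TRBJ1-4 and TRBJ2-4 led with 5 of 22 each and TRBJ1-1 had 4, and in WT dermis TRBJ2-4 led with 7 of 42 and TRBJ2-7 had 6. TRBJ1-3 kept its lead in epidermal A with 2 of 6, and TRBJ2-7 kept it in dermal A with 3 of 9, in the CD103hi sort with 6 of 25 and in lymph node with 364 of 2112.

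No TRBJ segment passed the test for unequal pairing with TRBV1 and with other TRBV segments. Over the 7 libraries with at least 10 TRBV1 clonotypes, 0 of 12 TRBJ segments (0%) passed an adjusted p of 0.05 in exact sign-flip permutation tests, and 2 had an unadjusted p under 0.05. The smallest p that 7 libraries allow is 0.0156, and a single segment at that p would not have passed after adjustment over 12. The 2 segments were TRBJ1-3, at 1.71% of TRBV1 and 5.33% of other clonotypes on average, and TRBJ1-5, at 0.758% of TRBV1 and 2.89% of other clonotypes (exact p = 0.0469 and adjusted p = 0.281 for each). Each was lower on TRBV1 in 6 of 7 libraries, the exception being lymph node, where TRBJ1-3 stood at 6.14% of TRBV1 and 4.91% of other clonotypes. Epidermal A, which had too few TRBV1 clonotypes to enter, went against this with 44.4% TRBJ1-3 on TRBV1 and 3.24% on other segments. Without close variants 5 libraries remained, and each of the 2 segments was lower on TRBV1 in 3 and higher in 2. The exact sign-flip p was then 0.312 for TRBJ1-3 and 0.25 for TRBJ1-5. The TRBJ1 cluster as a whole made up 30.9% of TRBV1 and 27.2% of other clonotypes on average (difference 3.76 points, exact p = 0.281, adjusted p = 0.338).

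**Figure D4:**
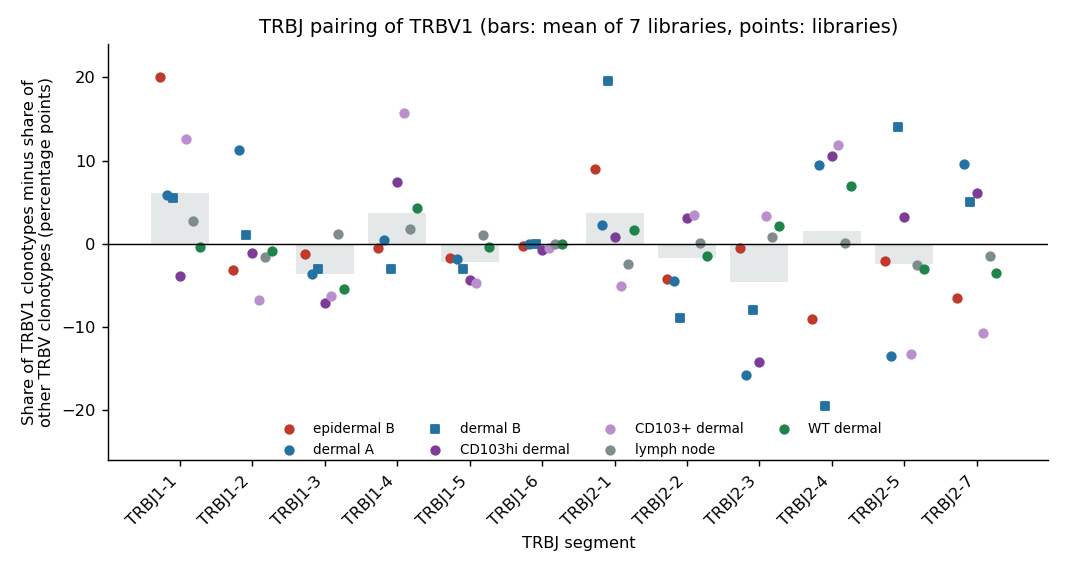
Share of TRBV1 clonotypes using each TRBJ segment minus the same share among other TRBV clonotypes (percentage points), with bars for the mean of the 7 libraries that had at least 10 TRBV1 clonotypes and points for the libraries. Points of most segments lie on both sides of 0; TRBJ1-3 and TRBJ1-5 lie below it in 6 of 7 libraries.

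TRBV1 CDR3s were of about the length of other CDR3s. Mean length was 13.8, 13.8 and 11 amino acids in epidermal A, B and C, and 14 and 13.7 in dermal A and B. It was 13.4 in the CD103hi sort, 13.8 in the CD103+ sort, 14.1 in lymph node and 14 in WT dermis, with SDs between clonotypes of 1.09 to 2.11. The 11 of epidermal C rests on 2 clonotypes. Against other TRBV clonotypes of the same library, TRBV1 was longer in 5 of 7 libraries and shorter in dermal A and B, by 0.236 amino acids on average in favour of TRBV1 (exact sign-flip permutation p = 0.0781, adjusted p = 0.117). Between epidermal B and dermal A and B the TRBV1 length differed by -0.0722 amino acids (exact permutation p = 1), a comparison of 1 library with 2 in which the smallest possible p is 0.333.

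The number of inserted nucleotides depended on how the junction was read. Per the deposited segment positions, TRBV1 clonotypes without any inserted nucleotide numbered 3 of 9, 12 of 27 and 0 of 2 in epidermal A, B and C, and 0 of 13 and 0 of 10 in dermal A and B. They were 21 of 47 (44.7%) in the CD103hi sort, 9 of 43 (20.9%) in the CD103+ sort, 16.7% of 2134 in lymph node and 10 of 53 (18.9%) in WT dermis. The share was lower on TRBV1 in 7 of 7 libraries, at 20.8% on TRBV1 and 28.9% on other TRBV clonotypes on average (difference -8.12 points, exact sign-flip permutation p = 0.0156, adjusted p = 0.0469). Dermal A and B contributed most, with differences of -19.4 and -20.9 points, against -0.441 in the CD103hi sort and -0.767 in lymph node. Their counts of 0 allow up to 23.1% and 30% by the limit of 3 counts. These limits lie above the 19.4% and 20.9% of other clonotypes there, so neither library alone can show a lower share. The mean number of inserted nucleotides was 2.41 on TRBV1 and 2.51 on other clonotypes (exact p = 0.812). The share was 44.4% in epidermal B and 0% in each of dermal A and B, and with 1 library against 2 no exact test can pass, the smallest p being 0.333.

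The deposited V ends run past the last germline base in 499 of the 2338 TRBV1 clonotypes. A second reading was therefore made by matching each CDR3 to reference V, D and J segments. The second clonotype of epidermal B, with 713 reads and TRBJ1-1, shows the difference: the deposited positions list no D and 4 inserted bases, and the reference match leaves 0.
epidermal B, second clonotype: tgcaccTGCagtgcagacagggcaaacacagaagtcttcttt
By the reference match the share without insertions was 11.1% in epidermal B, against 7.69% in dermal A and 0% in dermal B. TRBV1 was then lower than other TRBV in 4 of 7 libraries and higher in 3 (difference -4.87 points, exact p = 0.188). The mean number of inserted nucleotides by this match was 6.58 on TRBV1 and 6.55 on other clonotypes, above the deposited means. The match stops at the first mismatch, so 1 changed base in V or J makes the germline bases behind it count as inserted. With close variants and trace clonotypes left out, the TRBV1 mean fell from 8.19 to 2.45 in epidermal B. It fell from 6.62 to 2.40 in the CD103hi sort, and was 4.21 and 4.22 in lymph node. The higher means are therefore no count of added bases. Without close variants, on the deposited positions, the difference was -4.64 points in 5 libraries (exact p = 0.438).

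**Figure D5:**
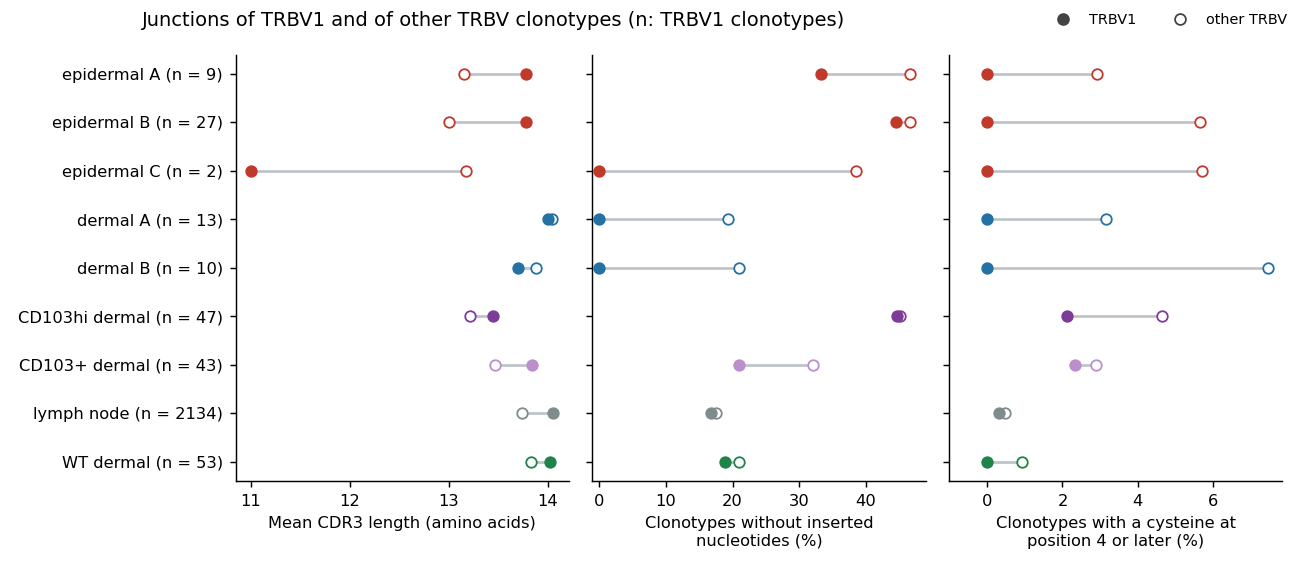
Mean CDR3 length (amino acids), share of clonotypes without inserted nucleotides by the deposited positions (%) and share with a cysteine at position 4 or later (%), for TRBV1 (filled) and other TRBV clonotypes (open) in each library, joined by a line. Epidermal A and C, with 9 and 2 TRBV1 clonotypes, did not enter the tests; in the middle and right panels every filled point lies to the left of its open one.

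How far a few large clonotypes dominated the TRBV1 reads differed between libraries. The 3 largest held 92.9% and 57.2% of TRBV1 reads in epidermal A and B, and 66.7% and 80.6% in dermal A and B. They held 52.0% in the CD103hi sort, 43.1% in the CD103+ sort, 0.951% in lymph node and 26.5% in WT dermis. The lymph node library had 26693 clonotypes at 52498 reads, and its largest TRBV1 clonotype had 15 reads.

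The largest TRBV1 clonotype of epidermal A, printed above and joined to TRBJ1-2, had 265 reads and was only the 47th largest clonotype of its library. Its other leaders used TRBJ2-7 (169 reads) and TRBJ2-5 (100 reads). In epidermal B the leader used TRBJ1-1 (853 reads, 1.66% of the library), and the next used TRBJ1-1 (713 reads) and TRBJ2-4 (531 reads). In dermal A the leader used TRBJ2-7 (1073 reads, 2.03% of the library), and the next used TRBJ2-4 (685 reads) and TRBJ1-2 (464 reads). All 3 of these dermal A junctions keep the cysteine and are 15 residues long.

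In dermal B the leader, joined to TRBJ1-2, had 2156 reads, 5.18% of the library and the largest share of any TRBV1 clonotype in the 9 libraries. A clonotype with TRBJ2-1 (1787 reads) and one with TRBJ2-5 (654 reads) followed. In the CD103hi sort the leader, joined to TRBJ2-5, had 1387 reads, 4.36% of the library, and only 1 clonotype of that library was larger. It is 10 residues long with 0 inserted nucleotides by both readings of the junction. Clonotypes with TRBJ1-4 (799 reads) and TRBJ2-4 (495 reads) came next there. The CD103+ sort was led by clonotypes with TRBJ2-2 (637 reads), TRBJ1-1 (534 reads) and TRBJ1-4 (443 reads).

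In WT dermis the leaders used TRBJ1-1 (1590 reads), TRBJ1-5 (1188 reads) and TRBJ2-7 (997 reads). In lymph node they used TRBJ1-1 (15 reads), TRBJ2-4 (14 reads) and TRBJ2-5 (14 reads). One sequence was among the 3 leaders of more than 1 library: the clonotype with TRBJ2-7 that led epidermal C with 3 reads was also the one with 997 reads in WT dermis.

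Counted over all TRBV1 chains, most of which came from lymph node, few were found in more than 1 library. Of 2121 distinct complete amino acid clonotypes (TRBJ and a CDR3 from cysteine to phenylalanine), 23 occurred in at least 2 libraries, and 16 of these within 1 set of libraries. Over the 21 pairs of skin libraries from different sets 0 clonotypes were shared. The 7 pairs from the same set shared 0 to 6, the most being between epidermal B and the CD103+ sort. There the shared clonotypes held 69.7% of the TRBV1 reads of epidermal B and 14.4% of those of the CD103+ sort. The leader of epidermal B had 853 reads there and 1 in the CD103+ sort, and the clonotype ranked 2 in the CD103+ sort had 1 read in epidermal B and 534 in the CD103+ sort. Dermal A shared 5 clonotypes, with 43.0% of its TRBV1 reads, with the lymph node library of its set. Dermal B shared 4, with 10.5% of its TRBV1 reads, with WT dermis of its set. The library names alone define the sets, and whether transfer of molecules between libraries contributed to the shared clonotypes was not tested.

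Only 2 of the chains occurred in at least 3 libraries. The leader of epidermal C, with TRBJ2-7, had 3 reads in epidermal C, 1 in dermal B and 997 in WT dermis, and 1 in the lymph node library. The first 3, which belong to 1 set, had the identical nucleotide sequence, and the lymph node had another, with codon 3 in capitals in both.
epidermal C, dermal B and WT dermal: tgcaccTGCagtgcggttgaacagtacttc
lymph node: tgcaccTGCagtgcagtggaacagtacttc
The second clonotype of epidermal B, with TRBJ1-1, had 713 reads in epidermal B, 1 read in the CD103hi sort and 9 reads in lymph node, where it had 3 nucleotide versions, 1 of them identical to the epidermal one. Both TRBV1 clonotypes of epidermal C were identical in nucleotides to clonotypes of WT dermis in the same set. Their shares in epidermal C were 1.30% (the clonotype with TRBJ2-7) and 0.521% (the one with TRBJ2-4) of those in WT dermis. Epidermal C thus held 0 TRBV1 clonotypes that were not also in WT dermis.

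The TRBV segments whose clonotype shares moved most like TRBV1 over the 9 libraries were TRBV5 (Pearson r = 0.68), TRBV26 (r = 0.63) and TRBV12-1 (r = 0.63), among 23 segments compared. TRBV5 stood at 19.9% in the CD103hi sort and 11.7% in dermal B, the 2 libraries where TRBV1 was also highest, and at 2.78% in epidermal C. These values describe 9 libraries that share sets and differ in their number of clonotypes, and shares of one library sum to 1 total.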

How the data were processed

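T cell receptor beta transcripts of 9 sorted pools were read, per the labels' protocols, after RACE copying, PCR and MiSeq sequencing. The deposited tables give, per the file headers, a read count for each clonotype, its fraction of the library, the CDR3 and segment positions. The fraction equalled count over total. No aligner, caller, error correction or segment reference is given in the sources used here. The gamma-chain library was not used.

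Libraries held 31823 to 189162 reads, and a count of 0 allowed up to 0.00943% of reads in the shallowest. Wilson 95% intervals cover counting error only. Reads and clonotypes per TRBV segment (at least 10 over the fitted libraries) were compared between epidermal (n = 3) and dermal (n = 2) groups with edgeR 4.0.16 (quasi-likelihood, common dispersion, library totals, Benjamini-Hochberg over segments), with DESeq2 1.42.0 as an alternative. CDR3 measures were averaged over distinct clonotypes in libraries with at least 10 TRBV1 clonotypes. Epidermal B was set against dermal A and B by exact two-sided permutation, adjusted over 4 measures. TRBV1 was set against other TRBV within 7 libraries by exact two-sided sign-flip permutation, where the smallest p is 0.0156, adjusted over 6 measures or 12 TRBJ segments. Inserted nucleotides are CDR3 bases that the deposited positions give to no segment. The second reading matched CDR3s to GENCODE vM21 transcripts (GRCm38), with V and J matches ending at the first mismatch and D matches of at least 3 bases. The statistical steps were tested on simulated data.

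Named clonotypes were the 3 largest per library and those in at least 3 libraries. Named TRBJ segments were the highest or lowest of a library, and named TRBV segments the 3 with the highest Pearson r to TRBV1. Library sets were read from library names in the labels. Members, lists and measures were chosen with earlier results of these data known. The labels do not tell whether pools shared animals, and p-values reflect spread among libraries, which may be technical.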

Additional observations from a re-analysis of the deposited data

Results flagged for a closer look

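The TRBV1 CDR3 length relative to other TRBV segments had one sign in epidermal B and the other in both unselected dermal libraries. TRBV1 was longer by 0.775 amino acids in epidermal B, and differed by -0.0450 in dermal A and -0.181 in dermal B. The difference between the groups was not tested, since 1 epidermal library had at least 10 TRBV1 clonotypes. Of the other epidermal libraries, A, with 9 TRBV1 clonotypes, stood at 0.626 and C, with 2, at -2.17, so the 3 epidermal libraries did not share a direction. The dermal sorts and WT dermis lay on the side of epidermal B, at 0.235 in the CD103hi sort, 0.365 in the CD103+ sort and 0.187 in WT dermis.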

How the results depend on the processing

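The log2 ratios of epidermal over dermal TRBV1 shares stayed below 0 under the alternatives run, from -6.34 to -1.17 by reads (14 alternatives) and from -1.60 to -0.38 by clonotypes (16 alternatives), and none passed the threshold. Leaving out 1 library at a time gave -3.99 (without epidermal B) to -1.17 (without dermal B) by reads and -1.60 (without dermal A) to -0.38 (without dermal B) by clonotypes. With the replicate letter as a block (A and B of each group) the log2 ratios were -1.64 by reads and -1.01 by clonotypes. The letters are not known to pair the libraries; deviations of epidermal A and dermal A correlated at 0.147 over 26 TRBV segments.

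Between epidermal B and dermal A and B, the direction of uncalled differences turned. For CDR3 length it was 0.0318 with the CD103 sorts added, 0.0778 under the replicate block, where 1 pair was left, and -0.222 to 0.0778 on leaving out a library. For the germline cysteine, 0.285 points in the main comparison became -0.308 by amino acid clonotypes, -0.852 with the CD103 sorts, -2.18 with all libraries, -7.41 under the replicate block, -0.0518 weighted by reads, and -7.41 to 7.98 on leaving out a library. Leaving out epidermal B gave no value, nor did at least 2 reads or leaving out close variants, which kept too few libraries. The cause was not tested.

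Within libraries, the lower share without insertions kept its direction in 10 of 10 alternatives and lost its call in 9: -5.28 points (at least 2 reads), -4.65 (no trace clonotypes), -7.66 (amino acid clonotypes), -7.35 (complete CDR3), -4.64 (no close variants), -9.34 (no lymph node), -14.1 (bulk mutant skin), -5.20 (reads as weights) and -4.87 (reference junctions). The lower share with a later cysteine lost its call in 8 of 9, in the same order -1.08, -2.10, -3.04, -2.36, -2.34, -3.38, -5.42 and, by reads, -2.10. By amino acid clonotypes and by reads its exact sign-flip p stayed at 0.0156. Only the adjusted p moved there, to 0.0938, as the share without insertions no longer had the smallest p. With 5 libraries or fewer the smallest p is 0.0625 or more, so the threshold cannot be passed. The share with at least 9 V bases (1.27 points, adjusted p = 0.0625) passed with all 9 libraries (1.24) and turned to -1.14 by reference junctions. Inserted nucleotides turned to 0.412 (at least 2 reads), 0.338 (no close variants) and 0.0271 (reference junctions). The alternatives without close variants and with reference junctions were chosen after seeing the data. Counts of 9 to 53 TRBV1 clonotypes in most skin libraries limit every share given.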

Other observations

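TRBD2 was listed with a TRBJ1 segment in 4 of 64 skin TRBV1 clonotypes that used the TRBJ1 cluster (6.25%) and in 24 of 748 in lymph node (3.21%), although TRBD2 lies downstream of that cluster in the germline. The skin cases were 3 of 18 in the CD103+ sort and 1 of 9 in epidermal B. They include the CD103+ clonotype with TRBJ1-1 and 534 reads, which also had 1 read in epidermal B. For other TRBV segments the counts were 31 of 705 in skin (4.397%) and 371 of 7313 in lymph node (5.07%).

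The first residue of the TRBV1 CDR3 was not a cysteine in 14 of 204 skin clonotypes, with 16 reads in all, and each of the 14 was a close variant. In lymph node this held for 23 of 2134 clonotypes with 25 reads.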
